A study of Mus musculus with 12 samples.

Results

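The double knockout against floxed control muscle was measured on 3 of the 12 microarrays in the series, chosen by their titles, and these 3 are called double 1 to double 3. RNA came from gastrocnemius, a calf muscle, of male mice aged 12 weeks on a C57BL6/J x sv129 background. The double knockout mice were PGC-1alpha-/- and also PGC-1beta f/f/Mlc1fCre, so that a Cre transgene driven by the fast myosin light chain 1 promoter should delete the floxed PGC-1beta gene in muscle fibres, while the -/- label for PGC-1alpha names no tissue limit. The control mice, which were PGC-1beta f/f without Cre, had both coactivators. Besides the double arrays, 3 alpha arrays set PGC-1alpha-/- muscle and 3 beta arrays set PGC-1beta f/f/Mlc1fCre muscle against the same floxed control genotype, and 3 direct arrays set double knockout against PGC-1alpha-/- muscle. Each array read 2 dyes, with Cy5 on the knockout RNA, which for the direct arrays was that of the double knockout, and Cy3 on the RNA it was set against, and no array had the dyes exchanged. The value for a gene is the log2 of the deposited Cy5 over Cy3 ratio, relative to the median probe of its array, so that -1 stands for a halved ratio and 1 for a doubled one. Of 19437 gene symbols on the array, 19204 had a defined ratio on at least 1 double array, 16918 still had one once dim or equal signals were left out, and 11673 had at least 2 in every group and were tested.

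Ppargc1a and Ppargc1b are the genes of PGC-1alpha and PGC-1beta, which are related transcriptional coactivators. They do not bind DNA themselves but are recruited by factors such as the estrogen-related receptors, NRF1 and GABP, which act at genes for mitochondrial proteins. In skeletal muscle they are known for raising mitochondrial content and oxidative metabolism, and PGC-1alpha responds to exercise. The respiratory chain passes electrons from NADH (complex I) and succinate (complex II) through complex III and cytochrome c to oxygen at complex IV, and ATP synthase uses the proton gradient this builds.

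Several properties of the 3 double arrays bear on every value that follows. The channel labels disagreed with the titles on 6 of the 9 arrays against floxed RNA: the Cy5 channel of double 1 was labelled PGC-1alpha-/-, that of double 2 PGC-1beta f/f/Mlc1fCre, and that of double 3 both. Groups follow the titles, because a grouping by title gave the double means of the authors' deposited tables for 100% of 9610 down and 5990 up probes within 0.006, against 1.39% and 0.952% with a grouping by channel label. The beta means in the same tables matched the mean of the 3 beta arrays for 1.05% and 0.267% of these probes, and the mean of beta 1 and 2 for 100%. Across genes, which are not independent replicates, the log2 ratios of double 1 and double 2 correlated at 0.31 (10121 genes), those of double 2 and double 3 at 0.27 (10733 genes), and those of double 1 and double 3 at 0.05 (10153 genes), while double 1 correlated at 0.65 with alpha 1 and at 0.60 with beta 1. The gap in median log2 ratio between probes with and without clear signal (bright minus dim) was 1.47 on double 1, -0.10 on double 2 and -2.71 on double 3. Ratios were undefined for 15.1%, 13.3% and 21.5% of probes on the 3 arrays. The median SD of a gene over its arrays was 0.52 in the double group, against 0.50 in the direct, 0.37 in the alpha and 0.34 in the beta group. The third beta array, whose Cy5 channel was labelled as the double knockout, stood apart and was left out of the test. Its bright minus dim gap was -4.80. The part of these differences between arrays in the results was not tested.

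The targeted genes were examined first. Ppargc1a had log2 ratios of -0.84, -1.93 and -1.21 on double 1, 2 and 3. It was below 0 on all 3 arrays, with a mean of -1.33 ± 0.56 (SD, n = 3), and did not pass limma's test (adjusted p = 0.0818). Its 2 probes averaged -1.60 and -1.06. Ppargc1b had log2 ratios of 0.38, 0.32 and 0.13, a mean of 0.28 ± 0.13 (SD, n = 3; limma, adjusted p = 0.689), with no array below 0 in muscle titled as lacking it. Its 3 probes averaged 0.64, -0.16 and 0.46 and so differed in sign, and the gene averaged 1.14 on the alpha arrays and 0.77 on beta 1 and 2. On the direct arrays, where both RNAs came from PGC-1alpha-/- mice and the Cy5 RNA also carried Mlc1fCre, Ppargc1b was at -0.17, -1.48 and -1.98. Whether these probes lie in the deleted exons was not examined here, and the titles are what assigns the genotypes. Of the 40 tested genes that flank Ppargc1a, 20 on each side, 0 passed the test, and the same held for the 40 that flank Ppargc1b. Over all genes tested 1.8% passed, a share at which 40 genes hold few calls or none, so these counts say little about either region. The median log2 ratios of the flanking genes were 0.12 and 0.18.

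Muscle titled as lacking both coactivators had lower levels of many respiratory chain transcripts and higher levels of some slow-fibre contractile transcripts. Over all 11673 genes tested, 210 (1.8%) differed from floxed controls at an adjusted p under 0.05 (limma, two-sided, Benjamini-Hochberg), of which 145 (1.24%) fell and 65 (0.557%) rose. Of the 145 that fell, 42 (29%) belong to the 11 lists of mitochondrial genes, and 0 of the 65 that rose do, while these lists hold 2.31% of all genes tested. The lists were chosen with earlier results of these data known. The antioxidant list is not among the 11, although it holds genes of mitochondrial proteins, of which Sod2 and Txn2 fell and Nnt rose. All 180 called genes with a ratio on every double array had the same sign on each, and the other 30 had 2 ratios. These genes were called on the same arrays, so a shared sign is largely built into the choice. Of all 9667 genes tested with a ratio on every double array, 18.6% were below 0 on each and 16.7% above 0 on each. A smaller ratio can stand for fewer cells of a type or for less RNA per cell, which cannot be told apart in whole muscle. The number of calls rests on the shared estimate of spread: for the double knockout against floxed control, the 3 double arrays alone gave 0 genes past limma's threshold (1340 at an unadjusted p under 0.05), and leaving out double 1, 2 or 3 gave 77, 58 or 95 calls. Keeping the third beta array in the fit left 12 calls, and leaving out the centring left 37. A term for the dye left 2 calls, Chchd10 and Tmc7 (704 unadjusted), and grouping by channel label left 0 (1910 unadjusted). Nothing says that the arrays come from separate mice or held separate control RNA, so the p-values cover only how far arrays differ. The spread between control mice enters only as far as the control RNA differed between arrays, which is not known.

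**Figure D1:**
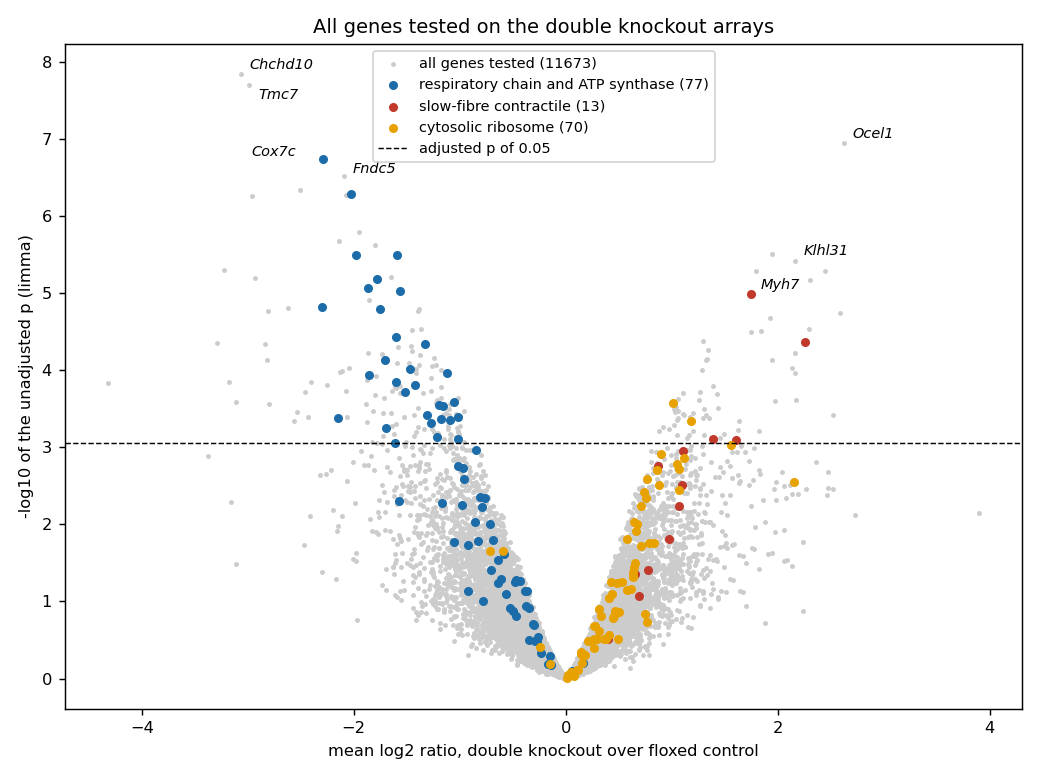
Each point is 1 of the 11673 genes tested; the horizontal axis is the mean log2 ratio of double knockout over floxed control and the vertical axis is -log10 of limma's unadjusted p. Yellow points are the 70 cytosolic ribosome genes. The dashed line marks an adjusted p of 0.05, which 31 of the 77 respiratory chain and ATP synthase genes (blue) pass on the lower side and 4 of the 13 slow-fibre genes (red) pass on the higher side.

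Genes of the respiratory chain and ATP synthase were lower as a group. Of 77 tested, 31 fell and 0 rose, and their median log2 ratio was -0.92, against -0.02 over all genes tested. The median was -0.89 on double 1, -0.77 on double 2 and -1.08 on double 3, so these arrays, which correlated weakly over all genes, gave similar medians for this group. Of the 72 with a ratio on all 3 arrays, 61 (84.7%) were below 0 on each, against 1794 of 9667 genes (18.6%). Likewise 19 of the 72 (26.4%) were below -1 on each, against 86 of 9667 (0.89%). The 50 genes whose probes all had clear signal on every array, a selection made after the values were seen, gave 23 that fell (46%), against 72 of 3304 such genes (2.18%). Without double 1, 2 or 3, 16, 10 or 12 of the respiratory chain genes fell, and the median was -0.92, -0.98 or -0.76. A fit with a term for the dye called 0 of them, with a median of -1.70, and grouping by channel label also called 0, with a median of -0.43. The 3 double arrays alone called 0, keeping the third beta array left 1 call and leaving out the centring left 4, with medians of -0.94, -0.96 and -0.98.

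**Figure D2:**
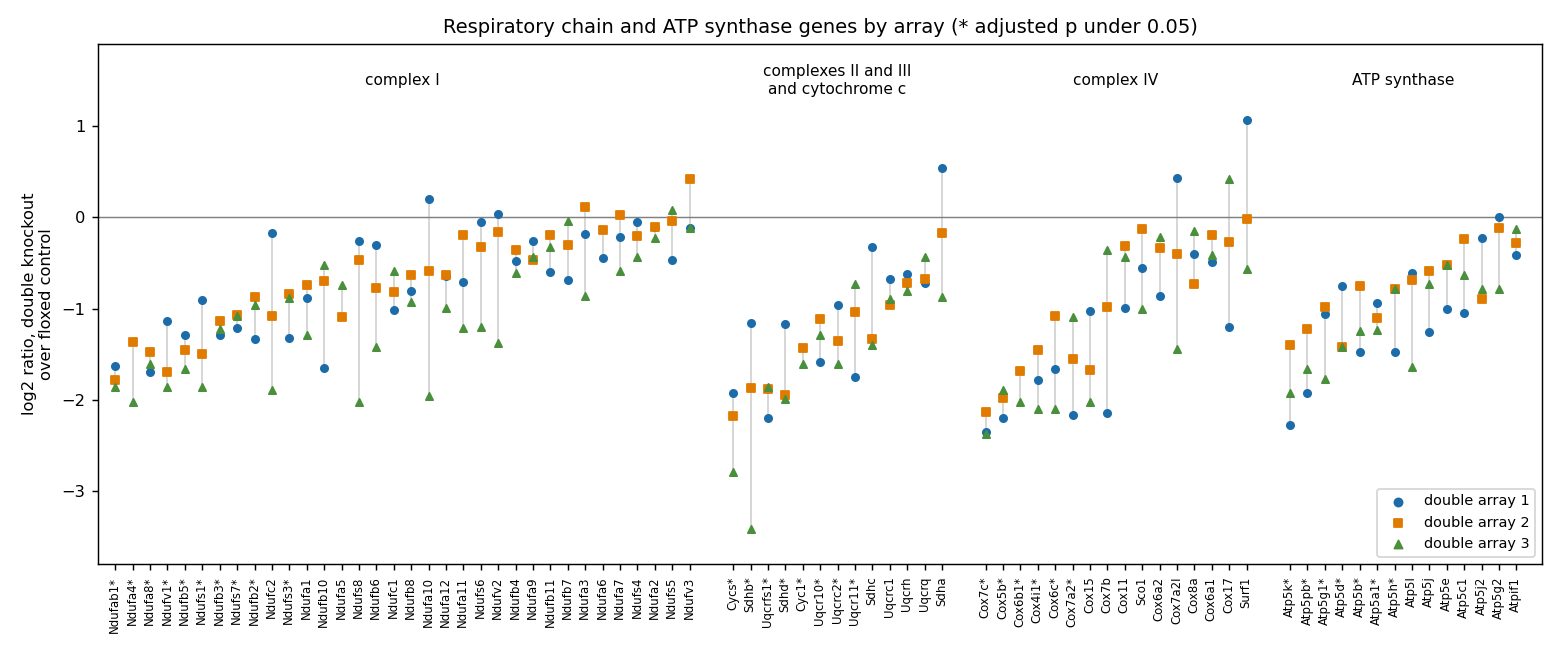
The vertical axis is the log2 ratio of double knockout over floxed control for each of the 77 tested genes of the respiratory chain and ATP synthase, with 1 symbol per double array and an asterisk where the adjusted p is under 0.05. Of the 72 genes with a ratio on all 3 arrays, 61 lie below 0 on each.

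In complex I, 10 of 34 tested genes fell, and the list's median was -0.80. Ndufab1, the mitochondrial acyl carrier protein that is also a complex I subunit, had log2 ratios of -1.63, -1.79 and -1.86 on double 1, 2 and 3 (mean -1.76 ± 0.12, SD; adjusted p = 0.00605). Ndufa8, an accessory subunit, was at -1.70, -1.48 and -1.61 (mean -1.60; adjusted p = 0.00248). Both were lower by about the same amount on each array. Ndufv1, the subunit that binds NADH, was at -1.13, -1.69 and -1.86 (adjusted p = 0.00435), and Ndufb5, a membrane arm subunit, was at -1.29, -1.45 and -1.66 (adjusted p = 0.0161). Ndufs1, Ndufs3 and Ndufs7, which are core subunits, and Ndufa4, Ndufb2 and Ndufb3 also fell, by 1.01 to 1.70 on the log2 scale. Ndufa4 is counted in this list by its name, although its protein is now assigned to complex IV. At the other end of the list, Ndufv3 and Ndufs5 had ratios on both sides of 0.

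Complexes II and III with cytochrome c had the lowest list median, -1.31, and 8 of 13 tested genes fell. Cycs, the gene of cytochrome c itself, was at -1.92, -2.18 and -2.79 (mean -2.30 ± 0.45, SD, n = 3; adjusted p = 0.00605), a 4.91-fold lower ratio. Its 3 probes averaged -2.46, -2.02 and -2.41, so they gave similar ratios. Uqcrfs1, the Rieske iron-sulfur protein of complex III, was at -2.20, -1.88 and -1.86 (mean -1.98 ± 0.19, SD, n = 3; adjusted p = 0.00248). Sdhb, the iron-sulfur subunit of succinate dehydrogenase, was at -1.16, -1.87 and -3.41, and its membrane anchor Sdhd was at -1.17, -1.95 and -1.99. Sdhb had the widest spread of the called genes in this list (SD 1.15), with its lowest ratio on double 3. The complex III genes Cyc1, Uqcrc2, Uqcr10 and Uqcr11 fell by 1.17 to 1.52 on the log2 scale, while Sdha, the flavoprotein of complex II, was above 0 on double 1 and below 0 on the other two arrays.

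In complex IV, cytochrome c oxidase, 6 of 16 tested genes fell and the median was -0.87. Cox7c was at -2.36, -2.13 and -2.38 (mean -2.29 ± 0.14, SD, n = 3; adjusted p = 0.00053), a 4.89-fold lower ratio. Cox5b was at -2.20, -1.98 and -1.89 (adjusted p = 0.000716), and Cox4i1, the largest nuclear-encoded subunit, was at -1.78, -1.46 and -2.10 (adjusted p = 0.00341). These 3 subunits were below -1.4 on every double array. Cox6b1, Cox6c and Cox7a2 also fell. The muscle isoform Cox6a2 was at -0.86, -0.33 and -0.22 and did not pass the test (adjusted p = 0.29), and the assembly factor Surf1 was at 1.07, -0.02 and -0.57 (adjusted p = 0.844).

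Of 14 tested ATP synthase genes, 7 fell, with a list median of -0.996. Atp5k, a subunit of the membrane part, was at -2.28, -1.40 and -1.93 (mean -1.87 ± 0.44, SD, n = 3; adjusted p = 0.00419). Atp5pb, the peripheral stalk subunit b, was at -1.93, -1.22 and -1.67 (adjusted p = 0.02). The catalytic subunit Atp5b was at -1.48, -0.75 and -1.25 (adjusted p = 0.0285), and Atp5d, the delta subunit of the rotor, was at -0.75, -1.42 and -1.42 (adjusted p = 0.0278). Atpif1, the inhibitor of the enzyme, was at -0.41, -0.28 and -0.12 and did not pass the test.

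Promoters of genes that moved together were searched for motifs of the factors through which these coactivators act, since NRF1 sites are known from cytochrome c and other respiratory chain genes. The windows are the 250 bases before the RefSeq start of each gene (GRCm38.p6), and the 5 shown belong to genes that fell on all 3 double arrays. The first 4 were picked because they hold a match, and Chchd10 for its low ratio. Of the other named genes whose windows were searched, Sdhb and Sdhd also hold a match. Cox7c, Cox5b, Cox7a2, Ndufv1, Ndufab1, Ndufb5, Uqcr10, Atp5b, Atp5d, Atp5pb and Fndc5 hold none. Capitals mark matches, on either strand, to the NRF1 consensus, to GCATGCGC (a core of the same motif, which can overlap it) or to TGACGTCA (the cAMP response element). Cycs lies at chr6:50566570-50566819, Atp5k at chr5:108434400-108434649, Ndufa8 at chr2:36049339-36049588 and Uqcrfs1 at chr13:30545317-30545566, all on the minus strand, and Chchd10, described below, at chr10:75932880-75933129 on the plus strand.
Cycs: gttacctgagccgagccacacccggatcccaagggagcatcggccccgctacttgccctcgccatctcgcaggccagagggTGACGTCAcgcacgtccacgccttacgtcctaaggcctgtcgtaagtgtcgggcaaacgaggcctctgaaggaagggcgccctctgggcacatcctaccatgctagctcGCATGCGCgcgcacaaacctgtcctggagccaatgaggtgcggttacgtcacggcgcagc
Atp5k: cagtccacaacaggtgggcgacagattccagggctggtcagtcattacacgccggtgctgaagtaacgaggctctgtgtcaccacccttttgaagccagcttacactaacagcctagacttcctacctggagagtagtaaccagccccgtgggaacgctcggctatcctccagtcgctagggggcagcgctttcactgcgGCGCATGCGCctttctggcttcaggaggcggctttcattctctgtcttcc
Ndufa8: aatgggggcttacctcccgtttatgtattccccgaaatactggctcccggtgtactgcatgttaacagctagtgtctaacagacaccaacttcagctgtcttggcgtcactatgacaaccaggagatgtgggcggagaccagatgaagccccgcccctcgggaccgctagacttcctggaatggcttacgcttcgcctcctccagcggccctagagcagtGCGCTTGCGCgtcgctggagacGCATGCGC
Uqcrfs1: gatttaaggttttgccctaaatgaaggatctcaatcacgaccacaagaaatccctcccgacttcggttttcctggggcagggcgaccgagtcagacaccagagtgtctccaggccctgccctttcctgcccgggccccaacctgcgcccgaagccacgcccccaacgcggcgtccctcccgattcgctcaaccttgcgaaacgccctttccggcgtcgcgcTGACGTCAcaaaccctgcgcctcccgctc
Chchd10: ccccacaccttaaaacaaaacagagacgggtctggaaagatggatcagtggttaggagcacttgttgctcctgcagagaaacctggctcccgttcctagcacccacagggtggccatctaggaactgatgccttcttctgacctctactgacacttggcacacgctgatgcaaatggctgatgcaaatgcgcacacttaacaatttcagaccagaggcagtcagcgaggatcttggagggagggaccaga
Counted back from the start, the NRF1 match of Atp5k begins at base -50 and that of Ndufa8 at base -30, the NRF1 core of Cycs begins at -60, and the cAMP response elements of Cycs and Uqcrfs1 begin at -169 and -29. The Chchd10 window holds no match, which says nothing about binding of the factors.

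RefSeq promoters were matched for 66 of the 77 tested respiratory chain genes, 25 of the 31 that fell and 9395 of the 11673 tested. The NRF1 consensus stood in 15 of 71 promoters (21.1%) of the tested respiratory chain genes, against 860 of 11900 (7.23%) for all genes tested and 3.74% of all promoters. Among respiratory chain genes that fell it stood in 4 of 26 promoters (15.4%), and among all genes that fell in 11 of 140 (7.86%). The core GCATGCGC was found in 4 of the 26 (15.4%), in 9 of the 71 (12.7%) and in 3.63% of promoters of all genes tested. TGACGTCA was found in 3 of the 26 (11.5%), in 5 of the 71 (7.04%) and in 2.35% for all genes tested. An estrogen-related receptor motif, TNAAGGTCA, was found in 0 of the 26, in 1 of the 71 and in 0.756% for all genes tested, and the GABP motif CCGGAAGT in 2 of the 26, in 3 of the 71 and in 4.99%. The shares among all promoters were 2.26% for the core, 1.55% for TGACGTCA, 1.14% for TNAAGGTCA and 2.88% for CCGGAAGT.

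Smaller shares of the enzymes that feed the chain passed the test. In the citric acid cycle and pyruvate entry list, 4 of 21 genes fell and the median was -0.96, with array medians of -0.25, -0.86 and -1.58, so that double 1 and double 3 differed. Dlat, the acetyltransferase of the pyruvate dehydrogenase complex, was at -1.07, -1.48 and -1.68, and Fh1, fumarase, was at -1.07, -1.42 and -1.66 (adjusted p = 0.0161 and 0.0155). Mdh2, mitochondrial malate dehydrogenase, was at -1.58, -0.84 and -0.96. Idh3g, a subunit of isocitrate dehydrogenase, was at -0.84, -1.14 and -1.35. Citrate synthase, Cs, often taken as a measure of mitochondrial content, was at -0.59, -0.60 and -0.58 and did not pass the test (adjusted p = 0.13).

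Of 21 genes of fatty acid uptake and oxidation, 2 fell, with a list median of -0.51. Cpt2, the inner membrane carnitine palmitoyltransferase, was at -1.15, -1.17 and -1.21 (mean -1.18 ± 0.03, SD, n = 3; adjusted p = 0.0213), and Acadvl, very long chain acyl-CoA dehydrogenase, at -0.76, -1.29 and -1.58 (adjusted p = 0.026). Acadl, its long chain relative, was at -0.83, -1.95 and -2.41 and missed the threshold (adjusted p = 0.0504). Cpt1b, the muscle form of the outer membrane transferase, was at -0.12, -0.40 and -0.26 (adjusted p = 0.583), and the fatty acid transporter Cd36 was at 0.16, -0.23 and -0.86 (adjusted p = 0.657). Among 19 mitochondrial carriers only Slc25a11, the oxoglutarate carrier, fell, at -1.18, -1.10 and -0.82, and of 17 genes of branched-chain amino acid breakdown only Acad8, isobutyryl-CoA dehydrogenase, did, at -2.05 and -2.46 on double 2 and 3. The branched-chain list had a median of -0.89 and array medians of 0.03, -0.91 and -1.13.

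Few genes of mitochondrial translation, import and DNA upkeep passed the test. Of 76 mitochondrial ribosome genes 2 fell (2.63%) and 0 rose, against 1.24% and 0.557% of all genes tested, with a median of -0.17. Mrps36, which is counted in this list by its name, was at -1.25, -1.18 and -1.23, and Mrpl12 at -0.62, -1.03 and -1.44. Mitochondrial DNA upkeep and transcription had 0 of 15 past the threshold and a median of -0.30, which turned to 0.09 when arrays were grouped by channel label. Mitochondrial chaperones and proteases had 0 of 11 past the threshold. With 1.8% of all genes called, 0 calls say little for lists this short. In the import and shape list, 2 of 30 (6.67%) fell: Chchd10 and Timm8a1, a small chaperone of the intermembrane space, which was at -1.07, -1.09 and -1.11 (adjusted p = 0.0453).

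Chchd10, a small protein of the mitochondrial intermembrane space known from inherited muscle and motor neuron disease, had the smallest p of all genes tested. Its deposited ratios were 0.087, 0.138 and 0.126 on double 1, 2 and 3, which gave log2 ratios of -3.34, -2.90 and -2.96 after centring (mean -3.07 ± 0.24, SD, n = 3; adjusted p = 0.000115), an 8.38-fold lower ratio. The 3 arrays lay within 0.44 of each other. Its mean in the authors' deposited table was 0.12. On the other arrays its log2 ratio was 0.01, -0.02 and 0.62 (alpha 1 to 3), 0.14 and 0.43 (beta 1 and 2) and -2.09, -1.90 and -1.75 (direct 1 to 3). On the third beta array, which was left out, it was at -2.53. The difference of the double from the alpha arrays and from beta 1 and 2 passed limma's test (adjusted p = 0.0032 and 0.0077), but not with the third beta array kept (0.718 and 0.781) or with no centring (0.111 and 0.178). The difference from beta also missed the threshold without beta 1 or beta 2 (0.194 and 0.317). The call against floxed controls was lost with groups by channel label, with the 3 double arrays alone and with 12 uncentred arrays and dim signals kept, and held in the other settings run.

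**Figure D3:**
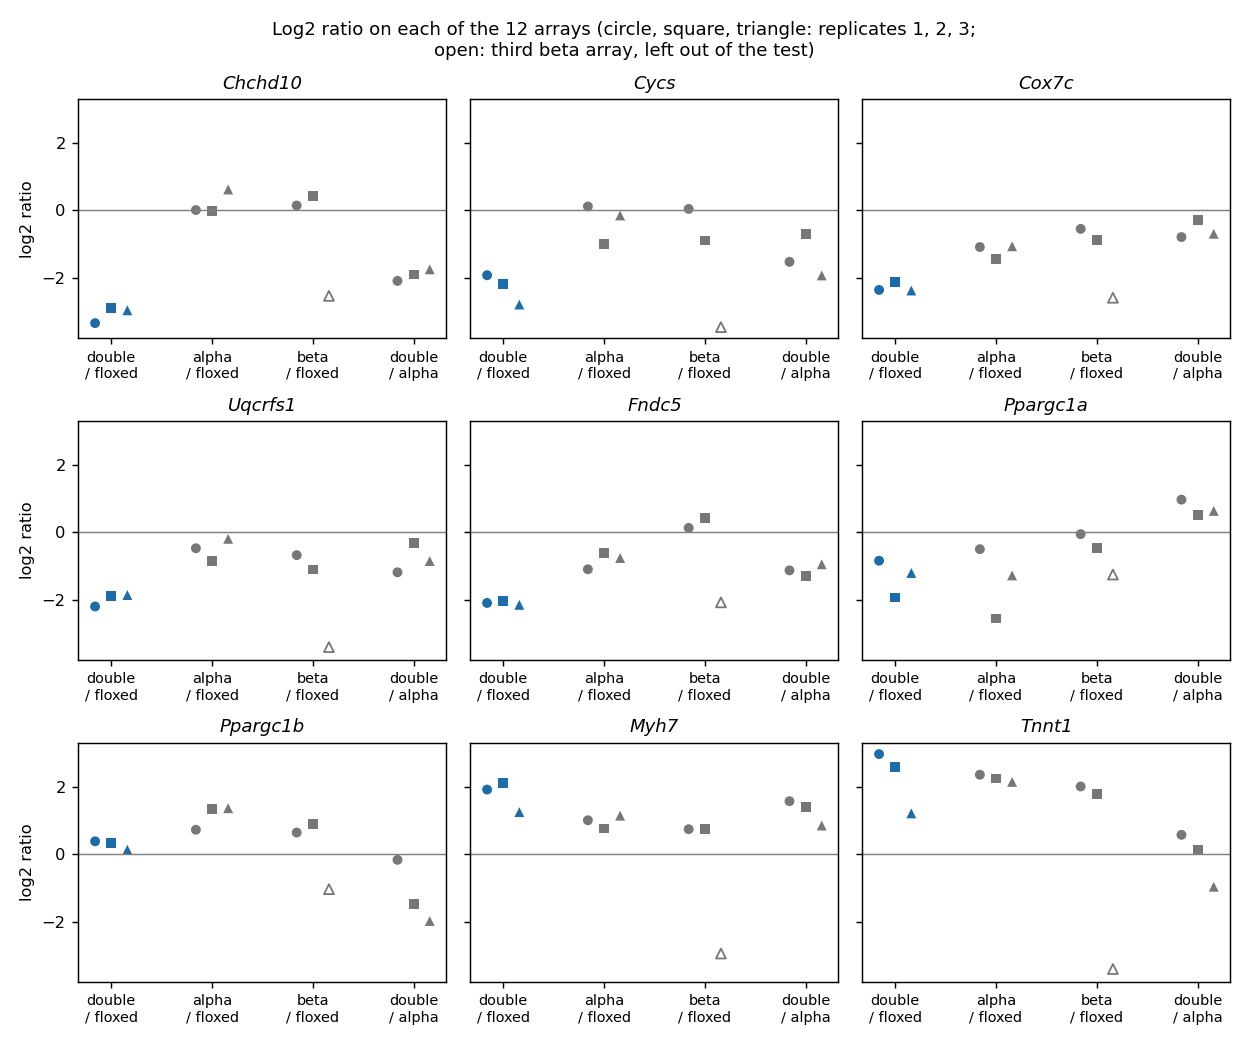
The vertical axes give the log2 ratio of 9 genes on each of the 12 arrays, in columns for double over floxed (blue), alpha over floxed, beta over floxed and double over alpha knockout; circle, square and triangle are replicates 1 to 3, and the open triangle is the third beta array. Chchd10 lies at -3.34, -2.90 and -2.96 on the double arrays and between -0.02 and 0.62 on the alpha arrays.

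Fndc5, the precursor of the secreted peptide irisin and a known PGC-1alpha target in muscle, was at -2.09, -2.04 and -2.15 on the double arrays (mean -2.09 ± 0.06, SD, n = 3; adjusted p = 0.000713), a 4.27-fold lower ratio. The gene values lay close together, but its 2 probes averaged -1.81 and -2.38, and on double 1 they lay at -1.12 and -3.07. It was the only one of 10 tested genes for secreted factors that fell. Vegfb, a vascular growth factor gene coexpressed with mitochondrial genes, was at -1.52, -0.71 and -0.98 and missed the threshold (adjusted p = 0.0512), and Vegfa was at -0.68, -0.03 and -0.44 (adjusted p = 0.601). Chchd10, Cycs, Cox7c, Uqcrfs1 and Fndc5 had been picked as markers from earlier results of these data, so their values are a description of the comparison and not separate support.

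Among the partners and regulators of PGC-1, 1 of 19 tested genes fell and 1 rose, against 1.24% and 0.557% of all genes tested. Sirt3, the mitochondrial deacetylase, was at -1.40, -1.52 and -1.77 (adjusted p = 0.021), and Nrf1, which encodes the factor whose motif was searched for, was at 1.23 and 1.41 on double 1 and 2 (adjusted p = 0.0308), from 1 of its 3 probes and with no usable ratio on double 3. The values of Nrf1 differed from the sum of its alpha and direct values by 1.96 on the log2 scale (unadjusted p = 0.00047). Esrra, the estrogen-related receptor alpha, was at -1.57, -0.53 and -0.41 (adjusted p = 0.15), Gabpa at 0.06, 0.14 and 0.26, and the third family member Pprc1 at 0.97 and 0.15 on double 1 and 3. None of these last 3 passed the test.

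Antioxidant genes moved both ways, with 3 of 18 lower and 1 higher. Sod2, the mitochondrial superoxide dismutase, was at -1.20, -1.46 and -1.69 (adjusted p = 0.00922), and Txn2, mitochondrial thioredoxin, was at -2.25, -1.38 and -1.14 (adjusted p = 0.0151). Glrx, the cytosolic glutaredoxin, was at -1.16, -1.43 and -3.03 (adjusted p = 0.0191). All 3 were below -1 on every double array. Nnt, nicotinamide nucleotide transhydrogenase, in which C57BL/6J mice are known to carry a deletion, was at 1.52, 1.38 and 0.71 (adjusted p = 0.0308). The cytosolic Sod1 was at -0.12, -0.82 and 0.28 and catalase, Cat, at 0.76, -0.53 and -1.37, neither past the threshold.

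Contractile genes of slow fibres were higher. Of 13 tested, 4 rose and 0 fell, with a median of 1.07 and array medians of 1.30, 1.44 and 0.67. Myh7, the slow myosin heavy chain, was at 1.91, 2.10 and 1.24 (mean 1.75 ± 0.45, SD, n = 3; adjusted p = 0.00461), and Tnnt1, slow troponin T, was at 2.96, 2.59 and 1.21 (mean 2.26 ± 0.93; adjusted p = 0.0116). Tnnc1, slow and cardiac troponin C, and Myl2, the slow regulatory light chain, also rose, with means of 1.60 and 1.39. Of the 11 with a ratio on all 3 arrays, 10 (90.9%) were above 0 on each, against 1615 of 9667 genes (16.7%), and 2 of the 11 were above 1 on each, against 38 of 9667 (0.393%). The same list had medians of 1.10 on the alpha arrays and 1.09 on beta 1 and 2, which share the floxed control genotype, and of -0.09 on the direct arrays, and on the third beta array it was at -2.56. Without double 1 or double 2 only the call of Myh7 was left, without any 1 alpha or beta array 2 calls were left, and a fit with a dye term, with no centring, with the third beta array, with channel labels or of the 3 double arrays alone left 0.

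Of 9 tested fast-fibre contractile genes 0 passed the test, with a median of 0.42. Actn3, the fast-fibre alpha-actinin, was at 0.90, 1.28 and 0.93 (adjusted p = 0.07), and Atp2a1, the calcium pump of fast fibres, was at -2.40, 0.00 and 0.28 (adjusted p = 0.516). The fast myosins Myh1 and Myh2 were below 0 on double 1 and 2 and at 1.37 and 1.14 on double 3. Of 11 general muscle genes 0 passed the test, with a median of 0.70, and among them creatine kinase, Ckm, was at 0.74 and 0.66 on double 2 and 3. The ratios hold no level, so the tissue label could not be checked. Of these 11 genes, 10 had a ratio on all 3 double arrays, against 9667 of all 11673 genes tested. All had passed the filter on measured ratios, so this says nothing about the tissue.

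Cytosolic ribosome genes were mostly above 0. Of 70 tested, 2 rose, Rpl41 at 1.10, 1.03 and 0.91 (adjusted p = 0.0272) and Rpl28 at 1.43, 1.41 and 0.71 (adjusted p = 0.0334), and 0 fell. The list median was 0.47, or -0.03 with a dye term. Of the 67 with a ratio on all 3 arrays, 41 (61.2%) were above 0 on each, against 16.7% of all genes. On the direct arrays, where Cy5 was also on double knockout RNA, the median was 0.67. The 2 calls were lost without double 1, double 2, alpha 3 or either beta array, and with the third beta array kept, no centring, dim signals kept, channel labels, a dye term, the 3 double arrays alone or 12 uncentred arrays.

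**Figure D4:**
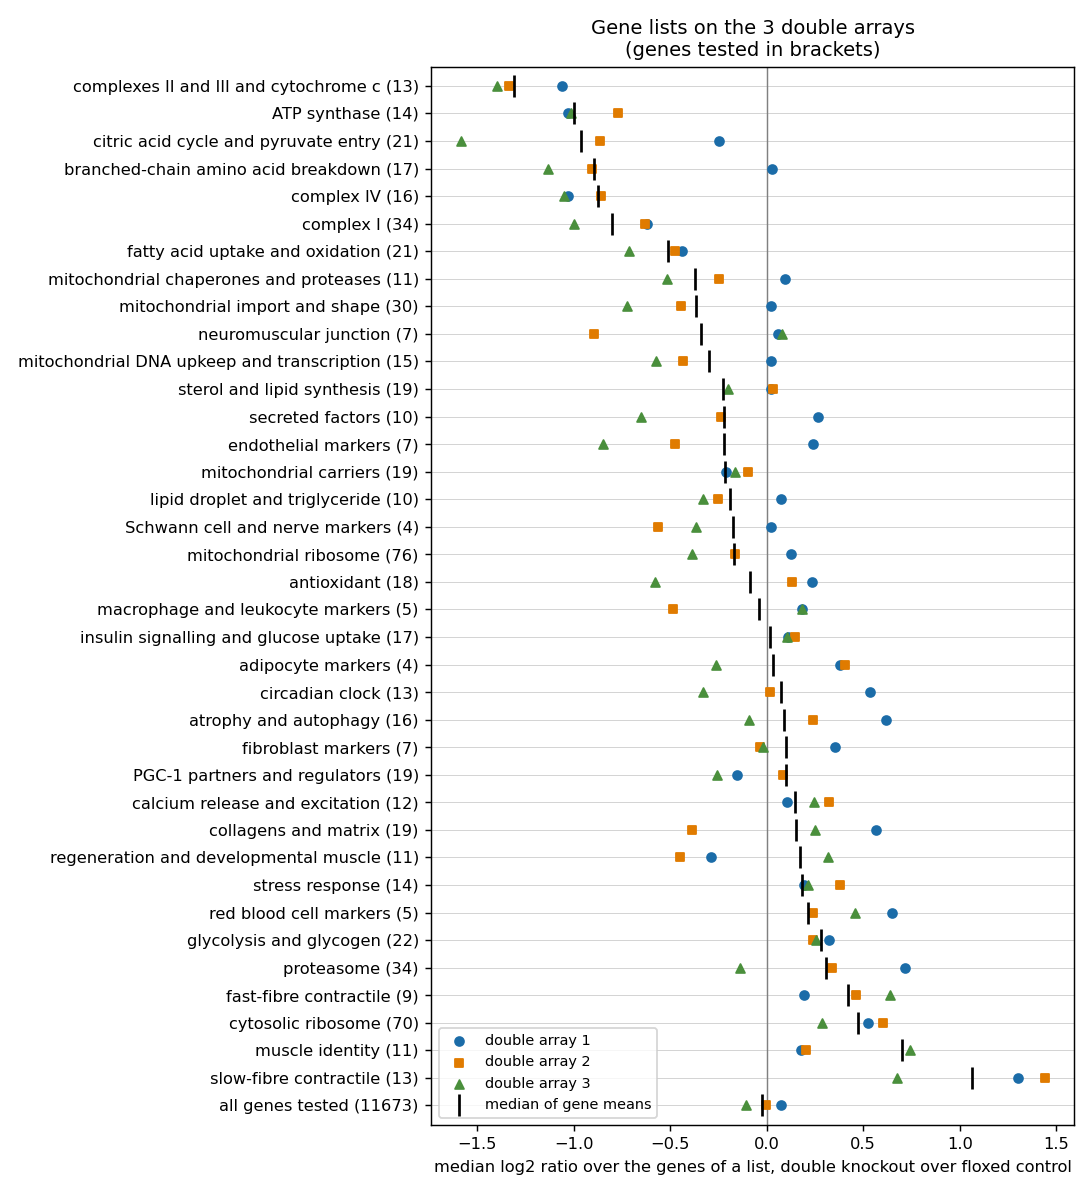
The horizontal axis is the median log2 ratio of double knockout over floxed control for each gene list, with 1 symbol per double array and a black bar for the median of the gene means. The respiratory chain lists lie below -0.6 on all 3 arrays, and the slow-fibre list above 0.6 on all 3, and the median over all genes tested lies at 0.07, -0.01 and -0.11 on double 1 to 3.

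Other lists had no member past the threshold, where 1.8% of all genes were called, a share at which lists of this size hold few calls or none. These were calcium release and excitation (0 of 12), regeneration and developmental muscle (0 of 11), the neuromuscular junction (0 of 7), glycolysis and glycogen (0 of 22, median 0.28 and -0.14 with a dye term), insulin signalling and glucose uptake (0 of 17), lipid droplets and triglyceride (0 of 10), sterol and lipid synthesis (0 of 19), stress response (0 of 14), atrophy and autophagy (0 of 16), the proteasome (0 of 34) and the circadian clock (0 of 13). Of 19 genes of collagens and matrix, Col6a1, a chain of collagen VI, fell, with a mean of -1.86 ± 0.14 (SD, n = 3; adjusted p = 0.00528). Markers of other cell types gave 0 calls, which at that share says little for lists this short: 7 endothelial, 5 macrophage and leukocyte, 7 fibroblast, 4 adipocyte, 4 Schwann cell and 5 red blood cell genes were tested. Their list medians lay between -0.22 (endothelial) and 0.22 (red blood cell), and no list was on 1 side of 0 on all 3 arrays except the red blood cell genes, at 0.65, 0.24 and 0.46. The part of other cell types in the results above was not tested.

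The genes with the lowest and the highest ratios lay mostly outside the mitochondrial lists. Of the 15 with the lowest mean among those past the threshold and of 1 sign on all 3 arrays, Chchd10, Cycs, Cox7c and Sdhb encode mitochondrial proteins described above. The lowest mean was that of B230311B06Rik at -4.58, -6.84 and -1.54, and it was also the most spread (SD 2.66). Hsbp1l1, Pdzd9, Cacna2d4 (a calcium channel subunit) and Rab6b (a GTPase of Golgi transport) followed with means of -3.29 to -3.12. Dusp26, a phosphatase, was at -3.18, -2.60 and -3.09 (adjusted p = 0.000716) and Tmem25 at -2.46, -2.22 and -2.83 (adjusted p = 0.000716). Tmc7, a transmembrane channel-like protein, was at -3.14, -2.86 and -2.96 (adjusted p = 0.000115), but its 3 probes averaged -4.97, -1.33 and -0.23, and only the first had a usable ratio on double 3. BC048679, Mpp6 (whose 2 probes averaged -5.62 and -0.00) and 4930481A15Rik complete the 15, of which 7 had clear signal on all arrays. On the alpha arrays, also set against floxed controls, B230311B06Rik, Hsbp1l1, Pdzd9, Cacna2d4, Dusp26, BC048679 and 4930481A15Rik also had low means, between -3.53 and -2.77.

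By the same rule, of the 12 with the highest mean among called genes of 1 sign on all 3 arrays, Ocel1 had the highest at 2.64, 2.54 and 2.68 (mean 2.62 ± 0.07, SD, n = 3; adjusted p = 0.000445). Klhl31, a kelch protein of striated muscle, was at 2.20, 2.05 and 2.23 (adjusted p = 0.00275), although its 2 probes averaged 0.95 and 3.37, and Clu, the secreted chaperone clusterin, at 2.05, 1.52 and 2.28 (adjusted p = 0.00248). These 3 differed little between arrays. Lrp2bp was at 2.52, 2.37 and 2.47, and Fez1, an adaptor for kinesin transport, at 2.15, 2.08 and 2.69. Scn2a, a neuronal sodium channel gene, and Kcne1l, a potassium channel subunit gene, were at 2.90, 2.41 and 1.57 and at 1.77, 2.29 and 3.69. The value of Scn2a on double 1 came from another probe than those on double 3. Tnnt1, 4930539J05Rik, Adat2, Rgcc and Exoc7 complete the list, and 7 of the 12 had clear signal on all arrays. Ocel1, Klhl31 and Fez1 averaged 2.44, 2.43 and 2.59 on the alpha arrays, which share the floxed control genotype.

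The double knockout could also be reached by a second route, alpha over floxed plus double over alpha. The difference between the double arrays and this sum was tested in the same model, and 0 of 11673 genes (0%) passed limma's threshold, with 445 at an unadjusted p under 0.05. This test is coarser than the first, since the median standard error over the 210 called genes was 0.43 for the difference and 0.25 for the double mean. Both routes had the same sign for 198 of the 210, which were chosen on the double arrays. The share over all genes tested was not counted here, so this count does not measure agreement of the routes. Both routes are set against the floxed control genotype. Of the 31 respiratory chain genes that fell, 30 were also below 0 by the sum, with medians of -1.56 on the double arrays and -0.82 by the sum. Of the 46 that did not pass the test, 28 were below 0 by the sum. These 31 were chosen on the double arrays; of all 77 tested, 71 were lower on the double arrays than by the sum, against 5972 of all 11673 genes. Cycs had -2.30 on the double arrays and -1.73 by the sum, Cox7c had -2.29 and -1.79, Uqcrfs1 had -1.98 and -1.29, and Fndc5 had -2.09 and -1.95. Cox5b was farther apart, at -2.02 and -0.72 (unadjusted p = 0.0027). Since Cy5 marked the knockout on every array, a gene-specific dye effect cannot be told apart from this difference.

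**Figure D5:**
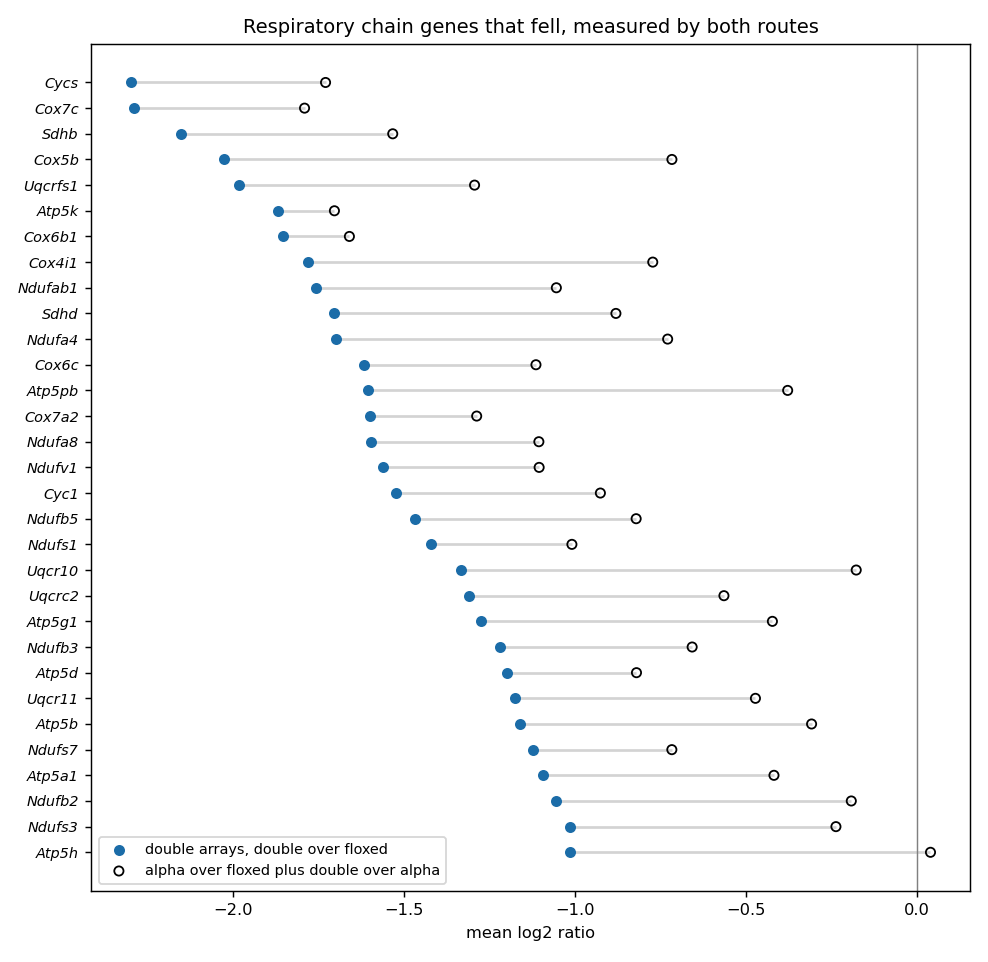
For each of the 31 respiratory chain genes that fell, the filled symbol gives on the horizontal axis the mean log2 ratio on the double arrays and the open symbol the sum of the alpha and direct means. The genes were chosen for low filled symbols, and 30 of the 31 open symbols also lie below 0.

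The arrays of the single knockouts give the context of these values. The 77 respiratory chain genes had a median of -0.92 on the double arrays, against -0.07 on the alpha arrays and -0.15 on beta 1 and 2, all relative to the floxed control genotype that they share. On the direct arrays the median was -0.38, at -0.37, -0.23 and -0.69 on direct 1 to 3, and 47 of 77 were below 0, against 6932 of 11673 genes tested with a median of -0.16. On the third beta array, which was left out, it was -2.64, against -0.86 over all genes tested. Low medians on that array were not particular to the respiratory chain, with -2.28 for the cytosolic ribosome and -2.59 for the proteasome. The list medians there ran from -2.86 (complex I) to 0.52 (macrophage and leukocyte markers), and the bright minus dim gap was -4.80. By the test of the difference itself, the double arrays differed from the alpha arrays for 10 genes (0.0857%; 1654 at an unadjusted p under 0.05) and from beta 1 and 2 for 2 genes (0.0171%; 898 unadjusted). Keeping the third beta array or leaving out the centring left 0 calls in either difference, and a replicate block left 7 against alpha and 1 against beta, where Fndc5 was lost (adjusted p = 0.111). Leaving out 1 array gave 1 to 19 calls against alpha and 0 to 3 against beta. Those that this account names were lower in the double knockout: Chchd10, Ndufv1 and Atp5d against alpha, and Chchd10 and Fndc5 against beta. Ndufv1 averaged -1.56 on the double and 0.71 on the alpha arrays, and Atp5d averaged -1.20 on the double and 1.13 on the alpha arrays.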

How the data were processed

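Gene expression was measured on 12 two-colour Agilent mouse arrays, 3 in each of 4 groups assigned by title. Per the labels' protocols, the authors extracted total RNA with Trizol and labelled the cRNA with Cy3 and Cy5. The authors' deposited value table holds a linear ratio of Cy5 over Cy3 per probe, but the sources used here do not give its background correction or normalization. The authors' deposited tables of mean ratios were used only to check groups and for values credited to them. Signal intensities and array depth were not analysed here, so the number of arrays limits the precision.

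From these values log2 was taken. Ratios at or below 0 and each array's repeated top value were left undefined. Ratios within 0.0006 of the array's factor times a fraction with whole numbers up to 10 were left out as dim or equal signals. Each array was centred on its median, and probes were averaged per symbol: 32443 of 40928 probes had 1 symbol in the platform annotation, 44 several and 8441 none. limma 3.58.1 in R 4.3.3 fitted 4 group means to 11 arrays, for genes with at least 2 values in every group, two-sided, with Benjamini-Hochberg adjustment over 11673 genes and a threshold of 0.05. The code was tested on simulated data. The median SD between arrays of the double group lies above that of the alpha and beta groups with which it shares an estimate of spread.

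Members and lists were chosen with earlier results of these data known. The genes named were the 15 lower and 12 higher genes with the largest mean among those past the threshold with 1 sign on all 3 arrays, up to 4 called members of each list by smallest p, or the lowest and highest member where none was called, the 5 markers, the targeted genes, and genes past the threshold in both the loop difference and the double comparison, of which there were 0. Other list members named were chosen after their values were seen, as were the counts over genes with clear signal. Promoters came from RefSeq. Deviations from group means correlated at 0.50, 0.23 and 0.12 between alpha and double arrays of the same number. Between beta and double arrays of the same number they correlated at 0.46 and 0.18. For arrays of different numbers the range was -0.48 to 0.31 between alpha and double and -0.46 to 0.32 between beta and double. These values do not settle whether the numbers mark pairs, and the main fit does not use them as pairs. With the direct arrays the range was -0.36 to 0.35, so the fit of all groups has no block. Alternatives covered the filters, centring, scaling, probe summary, dye, labels, arrays entered and a block.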

Additional observations from a re-analysis of the deposited data

Results flagged for a closer look

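The tests of the difference between the double arrays and the single knockouts, which share the floxed control genotype, picked out 5 values among the named genes. Chchd10 averaged -3.07 on the double arrays and 0.20 on the alpha arrays, a difference of -3.27 ± 0.30 (SE; limma, adjusted p = 0.0032). Against beta 1 and 2, at 0.29, its difference was -3.36 ± 0.33 (SE; limma, adjusted p = 0.0077). Ndufv1 averaged -1.56 on the double arrays and 0.71 on the alpha arrays, a difference of -2.27 ± 0.29 (SE; limma, adjusted p = 0.0211). Atp5d averaged -1.20 on the double arrays and 1.13 on the alpha arrays, a difference of -2.32 ± 0.33 (SE; limma, adjusted p = 0.0338). Fndc5 averaged -2.09 on the double arrays and 0.28 on beta 1 and 2, a difference of -2.37 ± 0.31 (SE; limma, adjusted p = 0.0488). All 3 double arrays lay below 0 for each of these 4 genes. On the third beta array, which was left out of the fit and whose Cy5 channel was labelled as the double knockout, Chchd10 was at -2.53, Ndufv1 at -2.90, Atp5d at -2.40 and Fndc5 at -2.08; the means of Chchd10 and Fndc5 on the double arrays were -3.07 and -2.09, and those of Ndufv1 and Atp5d were -1.56 and -1.20. Cytosolic ribosome genes also had a low median on the third beta array, -2.28, against -0.86 over all genes tested. With that array kept, or with no centring, all 5 differences missed the threshold. Those of Ndufv1 and Atp5d also missed it with dim signals kept (limma, adjusted p = 0.0984 and 0.109), and without any single alpha array, double 2 or double 3. That of Fndc5 also missed it with dim signals kept (limma, adjusted p = 0.0854), with a replicate block (0.111), and without any single alpha or double array. With the block the other differences passed, and with dim signals kept those of Chchd10 passed. Within the groups of 3, single arrays were not tested as outliers.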

How the results depend on the processing

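The number of calls for the double knockout against floxed control, 210, depended on the setting, while the respiratory chain median stayed below 0 under every setting, at -1.70 to -0.43, with 0 of its genes higher. Fewer calls came with dim signals kept (69), the third beta array kept (12), no centring (37) and a dye term (2), and 0 came with the 3 double arrays alone, with groups by channel label and with 12 uncentred arrays and dim signals kept (747 unadjusted). More came with the third beta array kept with array weights (478) and arrays scaled to equal spread (462). Leaving out 1 array gave 58 (double 2) to 248 (direct 3), with 77 without double 1, 95 without double 3, 109 without alpha 3 and 126 without either beta array. A replicate block gave 265 calls, 191 of them shared. The other filters, centring on clear probes and the median of probes gave 198 to 276. The test of double minus alpha (10 calls) gave 7 with a replicate block, 2 with dim signals kept, 0 with the third beta array kept or no centring, and 1 (for example without double 2) to 19 (without direct 3) with 1 array left out; that of double minus beta (2 calls) gave 1 with the block or with dim signals kept, 0 with the third beta array kept or no centring, and 0 (without beta 1 or 2) to 3 (without direct 3). These alternatives were added after seeing the data. The difference between the double arrays and the sum of the alpha and direct arrays gave 0 calls in all settings run (204 to 1745 unadjusted); with a dye term it could not be fitted.

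Signs turned for genes that had not passed the test. Mbp was at -0.043 with dim signals kept, -0.15 with array weights and -0.11 with 12 uncentred arrays, and Parl at -0.0098 and -0.080 under the first and the last of these. Lrpprc was at -0.17 with array weights, Myf6 at -0.021 and Acta1 at -1.22 with a dye term, and Stac3 at 0.12 and Cd3e at -0.39 by channel label. Leaving out 1 array gave -1.20 to 0.14 for Atp2a1, -0.82 to 0.18 for Stac3, -0.69 to 0.096 for Fabp4, -0.066 to 0.81 for Col1a1 and -0.10 to 1.62 for Lrpprc. The cause of these changes was not tested. Without intensities, how far a ratio rests on signal near background is not known here beyond the dim marks.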

Other observations

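Several called genes outside the lists also encode mitochondrial proteins, and they were chosen after their values were seen. Fmc1, an assembly factor of ATP synthase, averaged -1.95 on the double arrays (limma, adjusted p = 0.00189), and Atp5mpl, a small ATP synthase subunit, averaged -2.14 (limma, adjusted p = 0.00226). Mtfp1, a protein of mitochondrial fission, was at -1.90, -1.83 and -1.66 (limma, adjusted p = 0.0023). Micos13 of the cristae junction complex averaged -1.02, and Rhot2, which links mitochondria to transport along microtubules, averaged -1.09. Among genes with other roles, Smyd1, a methyltransferase of striated muscle, averaged -1.38 (limma, adjusted p = 0.00605).

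Among genes that rose outside the lists, Fkbp5, a co-chaperone known as a glucocorticoid target, was at 2.47, 1.34 and 1.42 (limma, adjusted p = 0.0094). Nnmt, nicotinamide N-methyltransferase, averaged 1.43, and Egln3, a prolyl hydroxylase of hypoxia signalling, averaged 1.29. Tnfrsf12a, the receptor of TWEAK, averaged 1.11. Nnmt had a ratio on double 2 and 3 only, and the other 3 were above 0 on all 3 double arrays.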
